A study of Mus musculus with 8 samples.

Results

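Amyloid, tau and synuclein genes are described here as measured by RNA-seq in bulk RNA from whole brains of mice. They are App, which encodes the amyloid precursor protein, its relatives Aplp1 and Aplp2, the secretase genes Bace1 and Psen2, the tau gene Mapt, the β-synuclein gene Sncb and the apolipoprotein E gene Apoe. The genes were chosen by name, by a rule that uses no measured value but was set with earlier results of these data known, and are 8 of the 24343 genes in the table. All 8 were found, and 8 of 8 passed the filter applied before testing, a mean of at least 1 FPKM, which 13001 genes passed.

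The amyloid precursor protein spans the membrane and is cut by a series of proteases. Cleavage by the β-secretase Bace1, and then by the γ-secretase complex with a presenilin as its catalytic subunit, releases amyloid-β, the peptide that forms plaques in Alzheimer's disease. Tau binds axonal microtubules and forms tangles in the same disease, β-synuclein is a presynaptic protein, and apolipoprotein E, secreted mainly by astrocytes, carries lipids between brain cells.

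The brains came from 3 C57BL/6NCrl mice at 56–62 days of age, and were sequenced as 3 libraries each of mouse 1 and mouse 2 and 2 of mouse 3. The labels name a single condition, with no treatment, transgene or mutant allele, so the comparisons possible are between genes, between transcripts and between individual mice. The labels do not say whether the libraries of a mouse were separate extractions, so p-values across libraries measure a spread that may be technical and compare these 3 mice only. Errors of levels and shares are SDs between the means of the mice (n = 3), and errors of log2 differences are SEs from limma's fit. In bulk RNA, fewer cells of a type and less RNA per cell cannot be told apart.

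FPKM is the number of sequenced fragments corrected for transcript length and for library size, so levels of different genes can be set side by side. Read depth was 1.31–2.02 gigabases on transcripts per library. The libraries of mouse 3 stood apart from the rest in their relation to transcript length. Across genes, Spearman's rho between transcript length and a library's deviation from the mean of all libraries was −0.365 and −0.576 in mouse 3, against 0.183 to 0.503 in the other 6 libraries. The differences of mouse 3 in the 8 genes are therefore given below also with this trend removed and with TPM, for which the FPKM of a library were rescaled so that all libraries had an equal sum.

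The APP family was abundant in all libraries, with App and Aplp1 well above Aplp2. App had a mean of 413 ± 69.0 FPKM, which ranked 92 among the 13001 genes. Its libraries read 473, 459 and 453 FPKM in mouse 1, 455, 436 and 440 FPKM in mouse 2, and 353 and 315 FPKM in mouse 3. Both libraries of mouse 3 were lower than all others, and the libraries of mouse 1 and mouse 2 overlapped. Aplp1, a relative of App, had 322 ± 18.6 FPKM, at rank 142. It read 339, 338 and 345 FPKM in mouse 1, 281, 305 and 324 FPKM in mouse 2, and 327 and 319 FPKM in mouse 3, so that mouse 3 lay within the range of the others. Aplp2, the more widely expressed relative, had 150 ± 17.9 FPKM, at rank 351. Its values were 161, 164 and 158 FPKM in mouse 1, 160, 159 and 162 FPKM in mouse 2, and 138 and 121 FPKM in mouse 3, the last being the lowest libraries.

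Summed over the family, App made up 46.4 ± 3.49% of the FPKM, Aplp1 36.6 ± 3.99% and Aplp2 17.0 ± 0.630%. Between libraries the App share ran from 41.7% to 50.7% and the Aplp1 share from 31.4% to 42.2%. In library 2 of mouse 3 the Aplp1 share (42.2%) was above the App share (41.7%), and in the other 7 libraries App was the larger. The share of Aplp2 stayed between 16.0% and 17.9%.

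App was almost entirely the short, neuronal form. The gene lies at chr16:84954436-85173707 on the minus strand of mm10, and the table lists 5 transcripts of it. They differ in whether they include a 168-base coding exon for a Kunitz-type protease-inhibitor domain (exon 7 of the longest model, chr16:85043576-85043743), the 57-base exon 8 after it (chr16:85040251-85040307) and the 54-base exon 15 (chr16:84971408-84971461). NM_007471, the 695-codon form that lacks exons 7 and 8, held 94.3 ± 0.574% of App FPKM, with a range of 93.4% to 95.1% over the libraries. The other 4 transcripts all carry the inhibitor exon and together had 23.3 ± 2.24 FPKM, or 5.71 ± 0.574%. This share was 4.85%, 6.06% and 5.76% in mouse 1, 5.16%, 5.26% and 5.25% in mouse 2, and 6.08% and 6.60% in mouse 3. Mouse 3 was above all other libraries, although the gap to the nearest of them was small. An exact permutation test that reassigned the libraries to mice in all 280 ways gave p = 0.0964 (adjusted p = 0.193 over 4 shares, two-sided). Transcripts that lack exon 15 held 1.85 ± 0.444% (NM_001198825) and 1.84 ± 0.168% (NM_001198826).

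Aplp2 (chr9:31149557-31211815, minus strand) carries a homologous 168-base exon at chr9:31167561-31167728, and here the exon was far from rare. The transcript with it, NM_001102455, held 48.9 ± 0.265% of Aplp2 FPKM, and NM_001102456, which lacks it, held 51.1 ± 0.265%. The share with the exon was 50.4%, 46.7% and 49.3% in mouse 1, 53.2%, 46.9% and 47.5% in mouse 2, and 50.5% and 46.8% in mouse 3, and the mice overlapped. This comparison of App with Aplp2 was chosen after the values were seen and is a description. NM_001102456 also has a 36-base coding exon 13 (chr9:31156190-31156225) that NM_001102455 lacks, so their shares do not measure the inhibitor exon alone. Both inhibitor exons are printed whole, since the shares compared here are of transcripts with them. They are taken from the GENCODE M21 transcripts on the strand of the gene, 5′ to 3′, and capitals mark the 114 of 168 positions (67.9%) at which they have the same base.
App inhibitor exon: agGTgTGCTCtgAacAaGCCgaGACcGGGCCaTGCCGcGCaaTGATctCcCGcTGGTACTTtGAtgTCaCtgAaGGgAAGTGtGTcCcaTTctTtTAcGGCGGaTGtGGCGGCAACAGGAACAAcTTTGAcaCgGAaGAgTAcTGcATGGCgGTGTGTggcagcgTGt
Aplp2 inhibitor exon: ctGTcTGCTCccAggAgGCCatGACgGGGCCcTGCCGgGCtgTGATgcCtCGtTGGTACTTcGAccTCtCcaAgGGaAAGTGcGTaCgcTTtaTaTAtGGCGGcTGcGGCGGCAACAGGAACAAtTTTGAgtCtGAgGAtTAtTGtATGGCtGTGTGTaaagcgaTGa

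In NM_007471, exon 6 is joined directly past 225 bases of coding sequence. The junction is shown because it is the sequence that tells the main App transcript from the others, with the 20 bases of the downstream exon in capitals.
App exon junction of NM_007471: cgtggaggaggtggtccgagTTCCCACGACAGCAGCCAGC

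The secretase genes were much lower than their substrate. Bace1 (chr9:45838529-45862484, plus strand), the protease that makes the first amyloidogenic cut in App, had 22.3 ± 1.58 FPKM, at rank 3025. It read 22.8, 24.1 and 24.8 FPKM in mouse 1, 20.8, 22.2 and 24.1 FPKM in mouse 2, and 21.3 and 20.2 FPKM in mouse 3. Mouse 3 was below mouse 1, and mouse 2 overlapped both. A transcript without the 102-base exon 6, NM_001145947, held 4.42 ± 1.43% of its FPKM. Psen2 (chr1:180227004-180256300, minus strand), a catalytic subunit of γ-secretase, was the lowest of the genes, with 5.38 ± 0.133 FPKM at rank 8528. It read 5.25, 5.48 and 5.70 FPKM in mouse 1, 3.68, 5.91 and 6.10 FPKM in mouse 2, and 5.78 and 5.10 FPKM in mouse 3. Mouse 2 held both the lowest library and the highest ones, and mice 1 and 3 overlapped.

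Mapt (chr11:104231436-104332089, plus strand) had 76.3 ± 9.93 FPKM, at rank 783. Its values were 85.7, 81.3 and 84.3 FPKM in mouse 1, 77.2, 81.6 and 81.6 FPKM in mouse 2, and 68.6 and 61.5 FPKM in mouse 3, and the libraries of mouse 3 were the lowest. Tau isoforms differ in inserts near the amino terminus, encoded by a pair of alternative exons. The 372-codon transcript NM_010838, which lacks the amino-terminal inserts, held 75.1 ± 2.74% of Mapt FPKM. The 430-codon transcript NM_001038609, which carries both inserts, held 16.9 ± 2.25%. NM_001285454 had 6.93 ± 0.722%, NM_001285455 had 1.03 ± 0.190% and NM_001285456 had 0.0869 ± 0.145%.

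The share of NM_010838 was 76.1%, 76.9% and 75.1% in mouse 1, 71.4%, 73.1% and 71.4% in mouse 2, and 77.9% and 76.3% in mouse 3. Mouse 2 was below both other mice, which overlapped each other. The same exact permutation test gave p = 0.0143 and an adjusted p of 0.0571 over the 4 shares tested, where 0.00357 is the smallest p that this design allows. The share of NM_001038609 ran from 11.9% to 21.8% over the libraries, with both the lower value and 17.5% in mouse 3 (exact permutation p = 0.211, adjusted p = 0.281). For NM_001285454 the same exact test gave p = 0.743 (adjusted p = 0.743).

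The inserts are 87 bases each and are exons 3 (chr11:104287123-104287209) and 4 (chr11:104289908-104289994) of NM_001038609. They are printed whole, with the junction that replaces them in NM_010838, where capitals mark the downstream exon.
Mapt exon 3 of NM_001038609: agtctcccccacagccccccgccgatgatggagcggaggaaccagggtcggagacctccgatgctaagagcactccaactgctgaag
Mapt exon 4 of NM_001038609: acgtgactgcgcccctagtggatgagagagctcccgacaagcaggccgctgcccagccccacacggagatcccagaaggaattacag
Mapt exon junction of NM_010838: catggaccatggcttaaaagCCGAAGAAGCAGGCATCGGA

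**Figure D1:**
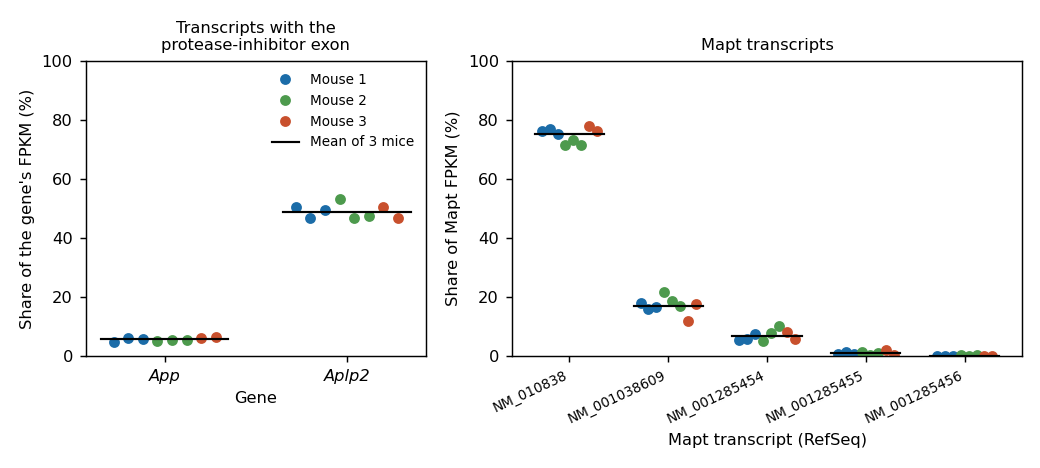
Share of each gene's summed FPKM (%, vertical axes) held by transcripts with the 168-base protease-inhibitor exon of App and Aplp2 (left) and by the 5 Mapt transcripts (right). Points are libraries, coloured by mouse, and lines are means of 3 mice. The App share sits between 4.85% and 6.60% and the Aplp2 share between 46.7% and 53.2%, and NM_010838 is the leading Mapt transcript in each library.

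Sncb (chr13:54758860-54766440, minus strand), with a single transcript, had 171 ± 19.96 FPKM, at rank 302. It read 196, 188 and 191 FPKM in mouse 1, 167, 163 and 178 FPKM in mouse 2, and 149 and 155 FPKM in mouse 3. The mice did not overlap, with mouse 1 the highest and mouse 3 the lowest. Apoe (chr7:19696244-19699188, minus strand) was the most abundant of the genes, with 1009 ± 357 FPKM at rank 15. Its values were 864, 790 and 763 FPKM in mouse 1, 858, 756 and 786 FPKM in mouse 2, and 1338 and 1505 FPKM in mouse 3. The libraries of mouse 3 stood above all others, whereas mice 1 and 2 covered the same range. NM_009696 held 99.5 ± 0.0504% of Apoe FPKM.

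From highest to lowest, the order was Apoe, App, Aplp1, Sncb, Aplp2, Mapt, Bace1 and Psen2, and each gene was above the next in 3 of 3 mice. For App and Aplp1 the ranges of the 8 libraries overlapped, with App higher in 7 of 8 libraries and 1.27-fold on average. They also overlapped for Sncb and Aplp2, with Sncb higher in 8 of 8 libraries and 1.14-fold on average. The other 5 neighbouring pairs did not overlap, with folds from 1.89 (Aplp1 over Sncb) to 4.14 (Bace1 over Psen2). With 3 mice the exact two-sided permutation test cannot go below p = 0.25, the value it gave for each of the 7 pairs (adjusted p = 0.25).

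**Figure D2:**
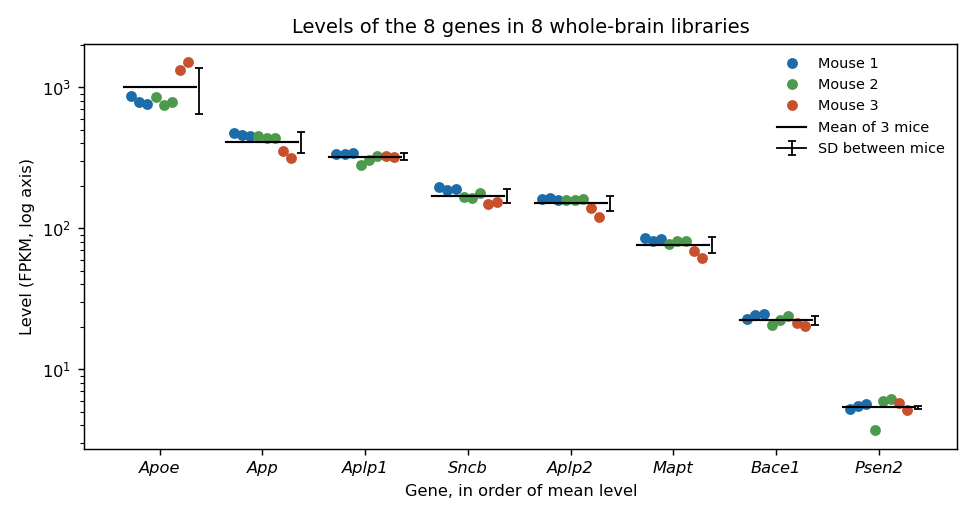
Level of each gene (FPKM, log axis) in the 8 libraries, in order of the mean. Points are libraries, coloured by mouse, lines are means of 3 mice and bars are SDs between mice. Mouse 3 lies above the other mice for Apoe and below them for App, Aplp2, Mapt and Sncb.

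Between the mice, Apoe was higher in mouse 3 while App, Aplp2, Mapt and Sncb were lower, and Aplp1, Bace1 and Psen2 were not called. In limma's moderated F-test over the 3 mice, 5 of the 8 genes had an adjusted p under 0.05, 1 higher and 4 lower in mouse 3. Over all genes tested 26.9% were called, 15.0% as higher and 11.9% as lower in mouse 3. The median difference of mouse 3 from the mean of mice 1 and 2 was −0.20 on the log2(FPKM + 1) scale over the 8 genes and 0.02 over all genes. The same 5 genes had both libraries of mouse 3 outside the range of the other 6, which held for 26.5% of all genes above that range and 21.7% below it. No difference between mouse 2 and mouse 1 was called for any of the 8 genes (limma, adjusted p = 1 for each). For Aplp1 and Sncb, however, all libraries of mouse 1 were above those of mouse 2, which was not counted over all genes. Between these mice 1 of the 8 genes, Sncb, had an unadjusted p under 0.05 in limma's test, as did 430 of 13001 genes. At an adjusted p under 0.05, 0.00769% of all genes were called.

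Apoe differed most, by 0.82 ± 0.108 (SE) on the log2 scale, a 1.77-fold higher level in mouse 3 (limma, adjusted p = 0.00556). The difference was 0.50 after removal of the length trend (limma, adjusted p = 0.0310) and 0.52 with TPM (limma, adjusted p = 0.0109). App was lower by −0.44 ± 0.0843 (limma, adjusted p = 0.0165), and by −0.41 after removal of the length trend (limma, adjusted p = 0.00949). The deposited confidence bounds of the leading transcript were apart between mouse 3 and the other libraries for Apoe and App and for no other of the 8 genes. For App the highest upper bound in mouse 3 was 347 FPKM and the lowest lower bound elsewhere was 395 FPKM.

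Aplp2 was lower in mouse 3 by −0.31 ± 0.0760 (limma, adjusted p = 0.0399) and by −0.25 after removal of the length trend (limma, adjusted p = 0.0378). Sncb differed by −0.25 ± 0.0730 (limma, adjusted p = 0.0374). Its transcript, of 1196 nucleotides, is the shortest of the 8 genes, and without the length trend its difference grew to −0.60 (limma, adjusted p = 0.00411). Mapt, whose transcripts average 5165 nucleotides and are the longest, differed by −0.33 ± 0.0716 (limma, adjusted p = 0.0243). Without the length trend it was −0.19 and no longer called (limma, adjusted p = 0.0609), so that 4 of the 8 genes were then called, beside 22.0% of all genes. Aplp1 was at 0.01 ± 0.0832 (limma, adjusted p = 0.302), Bace1 at −0.15 ± 0.0752 (0.221) and Psen2 at 0.03 ± 0.151 (0.894).

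With TPM the median over all genes moved from 0.02 to −0.26 on the log2 scale, and the share of called genes that were higher in mouse 3 went from 55.9% to 14.9%. Relative to that median, the TPM differences were 0.78 for Apoe, −0.48 for App, −0.38 for Mapt, −0.35 for Aplp2, −0.29 for Sncb, −0.19 for Bace1, −0.04 for Aplp1 and 0.01 for Psen2. The test used TPM differences without the median subtracted, −0.29 for Aplp1 and −0.45 for Bace1. These were called too, both as lower (limma, adjusted p = 0.0207 and 0.00612), but include the shift of the median over all genes.

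The calls depended on single libraries, most of all on library 2 of mouse 3. Without it, with 1 library left in mouse 3, none of the 8 genes was called. The differences were then 0.74 for Apoe, −0.36 for App, −0.27 for Sncb, −0.25 for Mapt and −0.21 for Aplp2. Their direction could not change, since both libraries of mouse 3 lay outside the range of the others for each of these genes. In the 8 fits that each omitted a library, the adjusted p was under 0.05 in 7 cases for Apoe, 4 for App and Mapt, and 2 for Aplp2 and Sncb. Leaving out any library of mouse 1 left 1 of the 8 genes called.

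**Figure D3:**
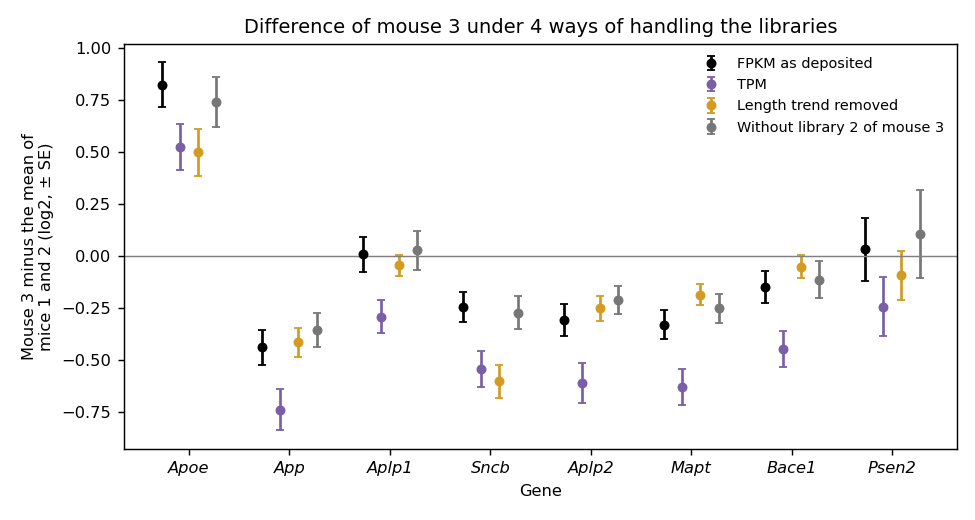
Difference of mouse 3 from the mean of mice 1 and 2 for each gene (log2 of the level + 1, vertical axis), with limma's SE as bars. Colours give FPKM as deposited, TPM, FPKM with the length trend removed, and FPKM without library 2 of mouse 3. Apoe is above 0 and App, Sncb, Aplp2 and Mapt are below 0 in all 4, whereas Aplp1 and Psen2 change sign with TPM and with the length trend removed. For Apoe, App, Sncb, Aplp2 and Mapt the sign could not change when library 2 of mouse 3 was left out.

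Markers of other cell types moved with these differences. All 5 astrocyte markers (Aqp4, Aldh1l1, Gja1, Slc1a3 and Aldoc) were called as higher in mouse 3 (1 of 5 with TPM and 2 of 5 without library 2 of mouse 3, in the same direction), and their summed level was 561–574 FPKM in mouse 1, 541–586 FPKM in mouse 2 and 893–980 FPKM in mouse 3. Divided by this sum, Apoe was 1.324–1.585 in the libraries of mice 1 and 2 and 1.498–1.536 in mouse 3, within the same range. Aldoc was the largest part of the sum, at a mean of 346 FPKM, and differed by 0.92 on the log2 scale. The other astrocyte markers differed by 0.45 (Aqp4) to 0.53 (Slc1a3), less than the 0.82 of Apoe. Of 5 neuronal markers 2 were called, both lower (5 with TPM, 3 with the length trend removed and 2 without library 2 of mouse 3, all lower), and the sum was 1780–1799, 1669–1727 and 1449–1592 FPKM in mice 1, 2 and 3. App divided by the neuronal sum was 0.253–0.268 in mice 1 and 2 and lower, at 0.198–0.244, in mouse 3. For Mapt the corresponding values were 0.0452–0.0489 and 0.0386–0.0473, for Sncb 0.0977–0.110 and 0.0972–0.103, and for Aplp2 0.0882–0.0954 and 0.0761–0.0956, all overlapping. Aplp1, by contrast, was higher relative to the neuronal sum in mouse 3 (0.200–0.226) than elsewhere (0.166–0.193). Snap25 was the largest part of the neuronal sum, at a mean of 1056 FPKM, and differed by −0.12 on the log2 scale. The 5 neuronal markers ran from −0.73 (Syt1) to 0.04 (Stmn2). These ratios were chosen after the values were seen.

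The summed oligodendrocyte markers were 1990–2207 FPKM in mice 1 and 2 and 3881–4801 FPKM in mouse 3, with 2 of 5 genes called, both higher (2 with TPM, 3 with the length trend removed and 2 without library 2 of mouse 3). Microglial, endothelial and blood markers had 2, 1 and 1 of 5 genes called, all higher in mouse 3, and choroid plexus markers had 1 of 5, which was lower. With TPM 0 microglial, 1 endothelial and 1 blood marker were called, all higher, and 2 choroid plexus markers, both lower. With the length trend removed the calls were 1 microglial and 2 endothelial markers, all higher, 1 blood marker higher and 1 lower, and 1 choroid plexus marker lower. Without library 2 of mouse 3, 1 endothelial marker was called and 0 microglial, blood or choroid plexus markers. No marker of these lists was at 0. The part of cell composition in the differences of the 8 genes was not tested.

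The genes whose log2(FPKM + 1) followed App most closely over the 8 libraries were Kif3a (Pearson's r = 0.995), Cadm3 (0.995) and Vopp1 (0.995). For Mapt they were Wasf1 (0.996), Sf1 (0.993) and Phyhip (0.993), and for Apoe they were Lrrc58 (0.992), Pdpn (0.988) and Camk2n1 (0.987). The points share the 3 mice and the length trends. After removal of the length trend, 0 of these 3 genes remained among the closest 3 for App, for Mapt or for Apoe.

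Other genes of the same pathways were taken from lists fixed by function. Of 57 such genes, all measured at a mean of at least 1 FPKM, 8 were higher and 8 lower in mouse 3, or 28.1% beside the 26.9% over all genes (limma's F-test, adjusted p under 0.05). Their median difference was 0.01, against 0.02 over all genes. The 16 called genes kept their direction with TPM, with median-ratio scaling and with the length trend removed. Leaving out either library of mouse 3 could not change their direction, since both its libraries lay outside the range of the others for each gene. Of the 16, 12 were called with TPM (of 30 called genes in the lists) and 11 with the length trend removed. None was called without library 2 of mouse 3. The calls lost were Ttbk1, Map4, Clu and Apod with TPM, and Adam10, Mark1, Sncg, Trem2 and Tyrobp with the length trend removed.

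None of the 6 γ-secretase genes was called in limma's F-test (2 at an unadjusted p under 0.05). Psenen, a small subunit needed for activation of the complex, was the most abundant, at 59.8 ± 13.6 FPKM, and Aph1c the least, at 1.71 ± 0.196 FPKM. Aph1b and Aph1c are near copies of each other, so the division of reads between them is uncertain. Among the other APP proteases, Bace1 was the highest and Bace2 the lowest (1.11 ± 0.225 FPKM), and 1 of 5 was called. This was the α-secretase Adam10, at 21.2 ± 2.68 FPKM, which was lower in mouse 3 by −0.31 ± 0.0803 (limma, adjusted p = 0.0457) and not called with median-ratio scaling.

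Of 11 genes for APP adaptors and trafficking, 3 were lower in mouse 3 and 0 higher. They were Apbb2 (−0.59 ± 0.0800), which encodes an adaptor of the APP cytoplasmic tail, Apba2 (−0.29 ± 0.0641), another such adaptor, and Picalm (−0.44 ± 0.0645), which acts in clathrin-mediated endocytosis (limma, adjusted p = 0.00614, 0.0280 and 0.00718). Levels in this list ran from 380 ± 68.6 FPKM for Itm2b, which encodes an inhibitor of APP processing, to 3.83 ± 0.0938 FPKM for Apba3. None of 4 amyloid-β degrading proteases was called in limma's F-test (0 at an unadjusted p under 0.05). They were expressed between 2.51 ± 0.107 FPKM for neprilysin (Mme) and 11.3 ± 0.729 FPKM for Ece1.

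Among 17 genes for tau kinases, their activators and phosphatase subunits, 3 were lower and 1 was higher in mouse 3. Gsk3b, a main tau kinase, differed by −0.45 ± 0.0789, Cdk5r1, the p35 activator of Cdk5, by −0.45 ± 0.0943 and the microtubule-affinity kinase gene Mark1 by −0.29 ± 0.0654. Ttbk1, a tau-tubulin kinase gene, was higher by 0.38 ± 0.0711 (limma, adjusted p from 0.0117 for Gsk3b to 0.0241 for Mark1). Ppp2ca, the catalytic subunit of the main tau phosphatase, was the most abundant of these genes, at 183 ± 6.70 FPKM, and Ttbk1 the least, at 11.5 ± 1.98 FPKM.

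Of the relatives of tau, Map2, the dendritic member of the family, had 129 ± 7.20 FPKM and was not called. Map4, the more widely expressed member, had 127 ± 20.3 FPKM and was higher in mouse 3 by 0.38 ± 0.0703 (limma, adjusted p = 0.0147). Sncg, which encodes γ-synuclein, had 14.9 ± 6.18 FPKM and moved opposite to Sncb. It was at 10.03–13.3 FPKM in mice 1 and 2 and at 16.1–27.9 FPKM in mouse 3, a difference of 0.86 ± 0.171 (limma, adjusted p = 0.0188). Sncaip, which encodes a synuclein-interacting protein, was at 1.54 ± 0.00433 FPKM.

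The list of Apoe receptors and lipid transport had 5 of 12 genes higher and 1 lower in mouse 3, beside 15.0% and 11.9% of all genes. Those that were higher, like Apoe, were the apolipoprotein genes Clu (0.42 ± 0.0837) and Apod (0.46 ± 0.0889), Lcat (0.58 ± 0.123), which encodes the enzyme that esterifies cholesterol on lipoproteins, the microglial receptor gene Trem2 (0.77 ± 0.152) and Tyrobp (1.16 ± 0.184), which encodes its signalling adaptor. Their adjusted p in limma's test ran from 0.00888 for Tyrobp to 0.0225 for Lcat. Abcg1, a sterol exporter gene, was lower by −0.43 ± 0.0803 (limma, adjusted p = 0.0147). The median over the list was 0.07. The balance of calls in the list changed with the scaling. It was 3 higher and 4 lower with TPM, 5 and 3 with median-ratio scaling, and 3 and 1 with the length trend removed. Clu was the most abundant gene of this list, at 350 ± 61.3 FPKM, and Abca1, which loads lipid onto Apoe, the least, at 4.23 ± 0.139 FPKM.

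**Figure D4:**
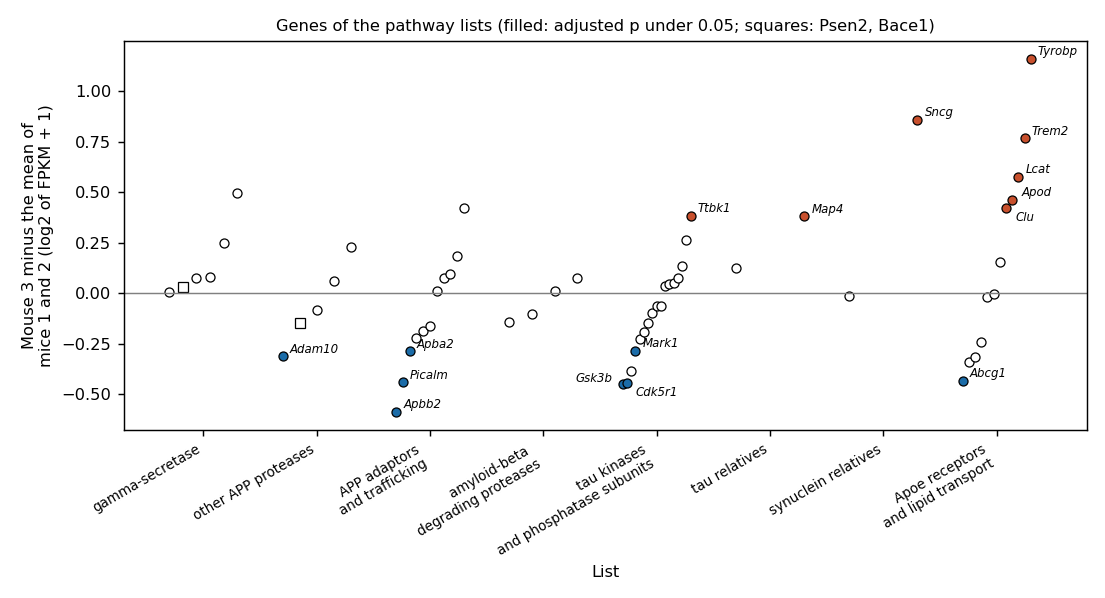
Difference of mouse 3 from the mean of mice 1 and 2 (log2 of FPKM + 1, vertical axis) for each gene of the 8 lists, ordered by difference within a list. Filled symbols have an adjusted p under 0.05 in limma's F-test, orange if higher and blue if lower, and squares are Psen2 and Bace1. The γ-secretase and amyloid-β degrading lists have no filled symbol, and the Apoe list has 5 above 0 and 1 below.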

How the data were processed

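Bulk RNA-seq of whole brain was made by the authors from total RNA with an integrity score above 8 and a Kapa mRNA HyperPrep kit, with sequencing on a NextSeq500. The authors deposited FPKM per RefSeq transcript, with confidence bounds, and the coverage per base, a signal without scaling for depth. The submitters' processing notes name TopHat, Cufflinks and mm10, and versions, read length and strand setting are not given in the sources used here. Without the strand setting, reads of antisense genes annotated within App, Bace1 and Mapt could not be told apart from theirs where exons overlap. Of 23181 deposited loci, 99.8% overlapped their GENCODE M21 gene on GRCm38. The status was FAIL for 8 values of 2 genes, none of them described here. The number of reads is unknown, so no counting intervals were computed.

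Here, FPKM was summed over the transcripts of a gene and averaged per mouse and then over mice. Differences were tested with limma 3.58.1 (R 4.3.3) on log2(FPKM + 1), a scale that understates changes of low genes, with a moderated F-test over 3 mice, a variance trend and Benjamini-Hochberg adjustment over the 13001 genes that averaged 1 FPKM or more (threshold 0.05). The fit was tested on simulated data. Transcript shares with a mean of at least 5% were tested by exact permutation. Length trends were removed by lowess (span 0.3) on the log2 of transcript length. Named genes are the 8 genes, the highest and lowest of each pathway list, list genes with an adjusted p under 0.05 whose libraries did not overlap between all mice, and the 3 genes most correlated with App, Mapt and Apoe. Exon sequences come from GENCODE M21 transcripts. Members, lists and the contrast of mouse 3 were chosen with earlier results of these data known. Alternatives were a pseudocount of 0.1, no filter, TPM, median-ratio scaling, length trend removal, the highest transcript per gene, the library number as a block and leaving out each library.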

Additional observations from a re-analysis of the deposited data

Results flagged for a closer look

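Psen2 in library 1 of mouse 2 was at 3.68 FPKM, against 5.10 FPKM in the nearest of the other libraries. The gap was 0.587 of the distance between the lowest and the highest library, above the critical value of Dixon's test for 8 values. Among 13 measures examined this was the only library to stand apart so far, and chance does so in about 1 in 20 groups. Library 1 of mouse 2 also had the lowest read depth, 1.31 gigabases on transcripts. Its Spearman's rho with transcript length, 0.503, was the highest of the libraries. Read depth per base on the leading Psen2 transcript was lowest there, at 5.87.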

How the results depend on the processing

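Over the 8 genes and 18 alternatives, the difference of mouse 3 kept its direction and its side of the threshold in 96 of 144 cases, fell below the threshold in 33, passed it in the same direction in 1 (Bace1 with TPM) and changed sign in 14, all of them Aplp1 or Psen2. Of these 14, only Aplp1 with TPM was called (limma, adjusted p = 0.0207). For Apoe, App, Aplp2, Mapt and Sncb, leaving out a library without other changes could not change the sign. Both libraries of mouse 3 lay outside the range of the others for these genes. For Aplp1 the difference was −0.069 with TPM and the length trend removed together, −0.29 with TPM, −0.046 with the length trend removed and −0.013 with median-ratio scaling. For Psen2 it was −0.097, −0.24 and −0.093 under the first 3 of these. TPM gave levels of 2855 (Apoe), 1218 (App), 936 (Aplp1), 501 (Sncb), 442 (Aplp2), 224 (Mapt), 65.2 (Bace1) and 15.6 (Psen2) TPM, and 5726 genes and 7 of the 8 genes were called. The highest transcript alone gave 78.4 FPKM for Aplp2 and 57.2 FPKM for Mapt. The library number as a replicate block called 3385 genes and 3 of the 8, with Aplp2 and Sncb lost (limma, adjusted p = 0.0528 and 0.0543), and 66.3% of calls were higher in mouse 3. Correlations of deviations ran from 0.00276 to 0.107 over 7 pairs of libraries with the same number, and from −0.135 to 0.0645 with unlike numbers. The 2 libraries of mouse 3 deviate by equal and opposite amounts, so the pairs are not independent. Whether libraries with the same number pair is not settled by these values.

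With 1 library left out, called genes ran from 372 to 4131 and members called from 0 to 5, the lowest without library 2 of mouse 3. Levels of App ran from 407 to 420 FPKM, of Apoe from 981 to 1037 FPKM and of Psen2 from 5.24 to 5.64 FPKM. The differences ran from −0.52 to −0.36 for App, −0.019 to 0.032 for Aplp1, −0.41 to −0.21 for Aplp2, −0.18 to −0.11 for Bace1, −0.066 to 0.11 for Psen2, −0.41 to −0.25 for Mapt, −0.27 to −0.22 for Sncb and 0.74 to 0.91 for Apoe. Share differences ran from −1.21 to −0.695 points for NM_007471, 2.33 to 3.91 for NM_010838, −6.13 to −0.461 for NM_001038609 and −1.12 to 1.07 for NM_001285454. With the length trend removed, leaving out library 1 of mouse 3 left 3 of the 8 genes called (Aplp1 at −0.085) and leaving out library 2 left 0 (777 genes called, Aplp1 at −0.0049), both chosen after seeing the data. The cause of these changes was not tested. With 2 libraries in mouse 3 and 1 left when either is omitted, the lone library is assumed to vary like the others.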
